A study of Sus scrofa with 2 samples.

Results

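Creatine kinase, adenylate kinase and AMP deaminase keep the ATP of a working muscle fibre topped up. They were followed here in the biceps femoris of abnormal and normal cloned piglets. An entry of the deposited tables, which is 1 transcript model, was taken if its symbol was CKM, CKB, CKMT2, AK1 or AMPD1, or if its protein description named a creatine kinase, an adenylate kinase or AMP deaminase. The rule found 9 of 12535 entries. These were 1 mitochondrial creatine kinase (CKMT2), 7 entries described as adenylate kinases or as holding an adenylate kinase domain, and AMPD1. The rule found no entry for the cytosolic creatine kinases CKM and CKB in either library. This does not show that they were not expressed, since a gene without a transcript model can have no entry. The muscle and the non-muscle form of creatine kinase could thus not be compared. What could be compared was the mitochondrial creatine kinase with the cytosolic adenylate kinase, and the forms of adenylate kinase with each other.

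Creatine kinase moves a phosphate group between ATP and creatine. The mitochondrial form loads creatine with phosphate at the site of ATP synthesis, and the cytosolic forms use phosphocreatine to regenerate ATP at the myofibrils and ion pumps. Adenylate kinase joins a pair of ADP molecules into ATP and AMP, AMP deaminase turns AMP into IMP, and the AMP-activated protein kinase (AMPK) senses the AMP and ADP that are left.

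RNA was taken from newborn piglets made by somatic cell nuclear transfer, on Day 1 after birth. Equal amounts of RNA from 3 abnormal piglets, which had an enlarged tongue, trouble standing and walking, or a defect of the umbilicus, made the single library of the abnormal cloned group. RNA of 4 normal piglets by the study's methods, or 3 by the sample labels, made the single library of the normal cloned group. The abnormal piglets and 2 normal piglets came from embryonic fibroblasts of 1 Large White male. The other 2 normal piglets came from ear fibroblasts, taken on Day 1 after birth, of another Large White male. Donor male, source of the donor cells and phenotype thus cannot be told apart in full. All animals were clones, and no piglet from natural breeding enters the comparison.

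The libraries held 6.38 M and 6.52 M uniquely mapped reads, and a floor of 3 reads stood at 0.470 and 0.460 RPM (reads per 1 M mapped reads). Levels are given as RPKM, reads per kb of transcript and per 1 M mapped reads, and differences as the log2 ratio of the RPKM, abnormal over normal. An entry was called up- or down-regulated, a DEG, at a false discovery rate (FDR) of at most 0.001 by the Audic-Claverie test with Benjamini-Hochberg adjustment over all 12535 entries, if its log2 ratio was also 1 or more, or -1 or less. With 1 library per group there was no replicate check. The test compares the libraries, not the conditions, and all intervals cover counting error only. Among all entries 1510 were up-regulated (12%) and 182 down-regulated (1.45%), and the median log2 ratio was 0.35 rather than 0. Transcripts of the mitochondrial genome took 36.0% of the abnormal and 46.1% of the normal library's reads. Rescaling by the median ratio brought the calls to 812 up and 498 down. The 7 skeletal muscle marker entries summed to 91141 and 84395 RPKM, so that skeletal muscle transcripts were abundant in both libraries. The 5 slow-fibre marker entries summed to 2013 RPKM in the abnormal and 16232 RPKM in the normal library, and 4 of them were down-regulated.

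Among the entries found, AK1 and CKMT2 were the abundant ones in both libraries. Both had the higher level in the normal library, although neither was called. Of the 9 entries 1 was up-regulated, AMPD1, and 0 were down-regulated, beside backgrounds of 12% and 1.45%. At an unadjusted p under 0.05 by the same test stood 4 entries, AK1 and CKMT2 lower and AMPD1 and an AK6-like entry higher in the abnormal library. The share of all entries at that p was not computed, and counts over so few entries say nothing particular about the group. The median log2 ratio was -0.06 over all 9 entries, with an RPKM of 0 set to 0.001, and 0.03 over the 7 with reads in both libraries, against 0.35 over all entries. The 9 entries took 11090 reads (abnormal) and 13158 reads (normal), or 0.174% and 0.202% of the reads, and CKMT2 and AK1 together made up 98.3% and 99.1% of them. In 6 of the entries at least 1 library held 10 or more reads.

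**Figure D1:**
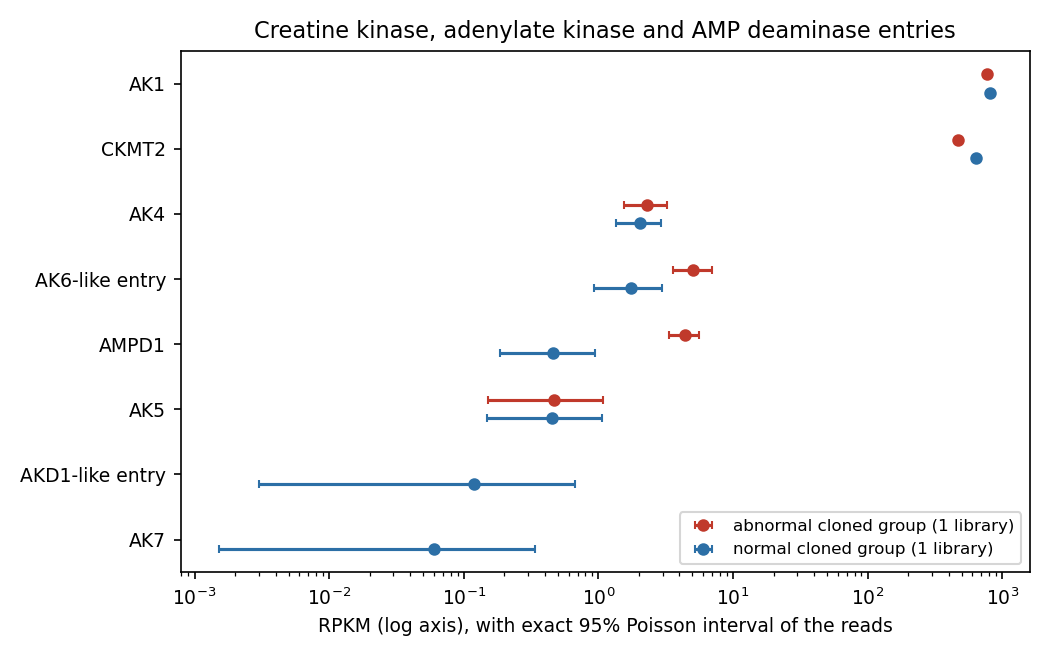
RPKM of 8 of the 9 creatine kinase, adenylate kinase and AMP deaminase entries on a log axis, 1 point per library (red, abnormal cloned group; blue, normal cloned group) with exact 95% Poisson intervals of the reads. AK1 and CKMT2 lie at 473 RPKM and above in both libraries and every other entry shown at 5.08 RPKM and below. AMPD1 shows the widest gap between the libraries, and the AKD1-like and AK7 entries have no red point because they had 0 reads there.

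CKMT2 encodes the sarcomeric mitochondrial creatine kinase, which sits between the membranes of the mitochondrion (chromosome 2, 79105664 to 79148276 on Sscrofa9, transcript of 1482 bases). The abnormal library held 4467 and the normal library 6170 of its reads, which gave levels of 473 RPKM (95% Poisson interval 459 to 487) and 639 RPKM (623 to 655). The abnormal library was the lower one and the intervals did not overlap. The log2 ratio was -0.44 (95% interval -0.49 to -0.38), a level 1.35-fold higher in the normal library, with an FDR of 3.92e-52 by the Audic-Claverie test. The difference was thus far beyond counting error between these libraries but short of the 2-fold size that a call needs. It was the 151st most abundant entry of the abnormal library and the 117th of the normal library, and reads covered 97.4% and 99.0% of its transcript.

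AK1 encodes the cytosolic adenylate kinase of muscle, also called myokinase (chromosome 1, 282842764 to 282852782, transcript of 1304 bases). Its 6436 and 6866 reads gave levels of 774 RPKM (755 to 793) in the abnormal and 808 RPKM (789 to 827) in the normal library. These intervals overlapped at their ends. The log2 ratio was -0.06 (-0.11 to -0.01) with an FDR of 0.0380 by the Audic-Claverie test, and AK1 was not called. It ranked 94th and 92nd among all entries, with 98.2% and 98.5% of the transcript covered.

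Since the median entry was higher in the abnormal library, the place of both genes within the libraries was also read. Of the 10929 entries with reads in both libraries, 18.2% had a lower log2 ratio than CKMT2 and 30.0% a lower one than AK1. Under rescaling by the median ratio the log2 ratios became -0.79 for CKMT2 and -0.42 for AK1. Without the transcripts of the mitochondrial genome in the totals they were -0.68 and -0.31. Both genes thus stayed lower in the abnormal library under these scalings, neither reached a log2 ratio of -1, and the size of AK1's difference depended on the scaling.

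A ratio of 2 genes within a library does not depend on the scaling. The mitochondrial creatine kinase stood at 0.611 of the level of AK1 in the abnormal library and at 0.791 in the normal library. The log2 ratio of these ratios was -0.37 (-0.45 to -0.30), so that CKMT2 was lower relative to AK1 in the abnormal library beyond counting error. The gap was wider against the proteins that pass ATP out of the mitochondrion. SLC25A4, the ADP/ATP carrier of muscle mitochondria, had levels of 2075 and 1595 RPKM, and CKMT2 stood at 0.228 and 0.401 of it (log2 ratio of ratios -0.81, -0.88 to -0.75). VDAC1, a channel of the outer membrane, had levels of 560 and 457 RPKM, and CKMT2 stood at 0.844 and 1.40 of it (-0.73, -0.80 to -0.65). CKMT2 thus exceeded VDAC1 in the normal and stood below it in the abnormal library. Against VDAC2, another outer-membrane channel, the ratio was 1.17 and 2.48 (-1.09, -1.18 to -0.995). Against SLC25A3, the phosphate carrier of the inner membrane, it was 0.622 and 0.876 (-0.49, -0.57 to -0.42). Rescaled by the median ratio, CKMT2 alone stood at a log2 ratio of -0.79. The gaps against SLC25A4 and VDAC1 were thus near the gap against a typical entry and not particular to these genes.

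ATP2A1, the calcium pump of the fast-fibre sarcoplasmic reticulum and a large consumer of ATP, gave the widest gap of the 6 genes set beside CKMT2. Its levels were 3018 and 1627 RPKM, and CKMT2 stood at 0.157 and 0.393 of it (-1.33, -1.38 to -1.27). Of the 7 fast-fibre marker entries, ATP2A1 among them, 4 were higher and 3 lower in the abnormal library. They summed to 54693 RPKM in the abnormal and 52166 RPKM in the normal library. AK1 stood at 0.256 and 0.497 of ATP2A1 (-0.95, -1.01 to -0.90) and at 0.373 and 0.507 of SLC25A4 (-0.44, -0.50 to -0.38). The latter gap was near AK1's own log2 ratio of -0.42 after rescaling by the median ratio. Each of these 8 ratios was lower in the abnormal library. The genes set beside CKMT2 and AK1 were chosen after seeing the data. CKMT2 and AK1 had negative log2 ratios and the other genes positive ones. The direction of the ratios against genes other than AK1 was thus fixed by that choice. The slow-fibre markers MYH7, TNNC1, MYL3 and MYL2 (listed as MLC2V) and the share of mitochondrial-genome reads were also lower in that library, whereas the slow-fibre marker CASQ2 was higher (90.5 and 70.0 RPKM, log2 ratio 0.37, 0.20 to 0.54). Lower, too, was the sum of the 5 red blood cell marker entries (487 and 699 RPKM, of which 0 were called). The 4 fibroblast entries summed to 1356 and 1508 RPKM and the 4 smooth muscle entries to 365 and 414 RPKM. The part of these markers in the ratios was not tested. In pooled bulk RNA, fewer fibres of a type and less transcript per fibre cannot be told apart.

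**Figure D2:**
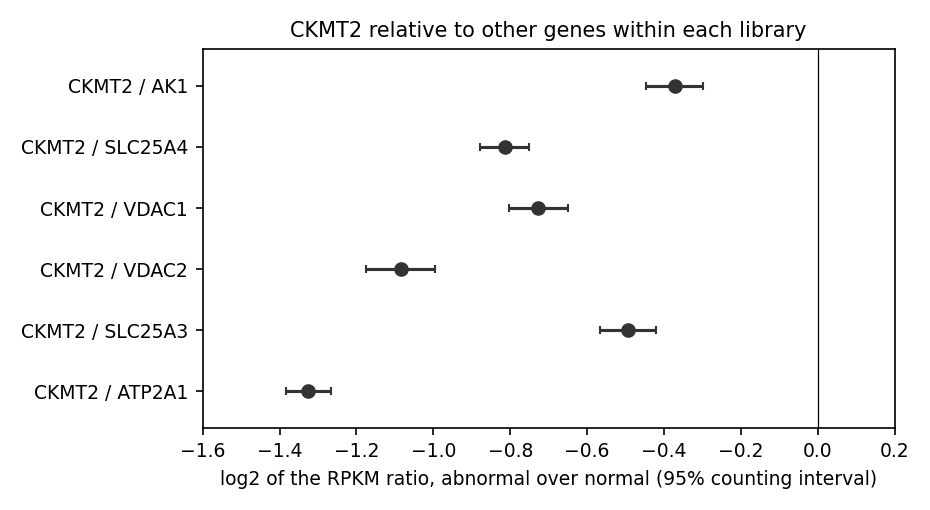
Log2 of the RPKM ratio of CKMT2 to each of 6 genes, abnormal over normal cloned group, with 95% counting intervals. All 6 points lie left of 0, from -0.37 against AK1 to -1.33 against ATP2A1.

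AMPD1, the muscle form of AMP deaminase, was the called member (chromosome 4, 110229095 to 110252361, transcript of 2335 bases). It was found through its Ensembl identifier, since its listed symbol was LOC100515659. The abnormal library held 65 and the normal library 7 of its reads, levels of 4.36 RPKM (3.37 to 5.56) and 0.460 RPKM (0.185 to 0.948). The abnormal library was 9.49-fold higher, with a log2 ratio of 3.25 (2.15 to 4.34) and an FDR of 4.08e-12 by the Audic-Claverie test. Of the entries with reads in both libraries 99.2% had a lower log2 ratio.

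The reads of AMPD1 fell on a small stretch of its transcript, 129 bases or 5.52% (abnormal) and 118 bases or 5.05% (normal). Among the 210 entries of the abnormal library with 0.8 to 1.2 times its reads and its length the median coverage was 64.2%, and 0 of them were covered as little as AMPD1. Among 144 such entries of the normal library the median was 12.4%, and 5 were covered as little. The RPKM spreads the reads over all 2335 bases, so the level of AMPD1 in either library is uncertain. Assuming a biological variation of 0.4 in edgeR's exact test ended the call, and requiring 10 reads in each of the libraries removes the entry.

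The other adenylate kinases were minor beside AK1. AK4, an adenylate kinase of the mitochondrial matrix listed under the older symbol AK3L1, had 31 and 28 reads, levels of 2.30 RPKM (1.56 to 3.26) and 2.03 RPKM (1.35 to 2.93). The log2 ratio of 0.18 (-0.55 to 0.91) included 0, and it was negative under each of the 4 other scalings. AK5, the form best known from brain, had 5 reads in each library, with levels of 0.464 RPKM (0.151 to 1.08) and 0.454 RPKM (0.148 to 1.06). AK7 and an entry described as adenylate kinase domain containing 1 (the AKD1-like entry) were at 0 reads (abnormal) and 1 read (normal) each, both under the floor of 3 reads, so no fold was formed.

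LOC100515933 was described as adenylate kinase isoenzyme 6-like, whereas RefSeq (Sscrofa11.1) gives the same gene number to TAF9, a subunit of a general transcription factor, and the reads cannot be assigned to either name (chromosome 16, 44795182 to 44813403). It had 37 and 13 reads, levels of 5.08 RPKM (3.58 to 7.0) and 1.75 RPKM (0.930 to 2.99). The abnormal library was higher and the intervals did not overlap. The log2 ratio of 1.54 (0.64 to 2.44) came with an FDR of 0.00283 by the Audic-Claverie test, above the threshold. Reads covered 19.35% and 14.27% of the transcript. Among 205 entries of similar reads and length in the abnormal library the median was 65.75%, and 4 were covered as little. Among 181 such entries of the normal library the median was 37.2%, and 7 were covered as little. The level of this entry in either library is thus uncertain.

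In order of level, AK1 was first and CKMT2 second in both libraries, apart from each other beyond the Poisson intervals. Of the other members described here, the AK6-like entry and AMPD1 came next in the abnormal library with overlapping intervals, and AK4 and then AK5 followed below them with intervals that did not reach their neighbours'. In the normal library AK4, the AK6-like entry, AMPD1 and AK5 followed in this order, and the intervals of each neighbouring pair overlapped.

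AK3 encodes the GTP:AMP phosphotransferase of the mitochondrial matrix and stood outside the rule because its protein description does not use the words adenylate kinase. Its 143 reads (abnormal) and 53 reads (normal) gave levels of 17.5 RPKM (14.8 to 20.7) and 6.36 RPKM (4.76 to 8.32). The log2 ratio was 1.46 (1.01 to 1.92), and AK3 was up-regulated with an FDR of 3.35e-10 by the Audic-Claverie test. Whether AK3 differed from AK4 in its change was not tested.

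The genes around the members were described from lists of creatine supply, purine handling, AMPK, mitochondrial exchange and ATP consumers. They held 44 entries of 42 genes besides the members. Of these 8 were up-regulated and 0 down-regulated, with 30 higher and 14 lower in the abnormal library and a median log2 ratio of 0.44, beside 12% and 1.45% called and a median of 0.35 over all entries. Among the 8 were 5 AMPK subunits. The other 3 were AK3, HPRT1 and NT5C2.

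**Figure D3:**
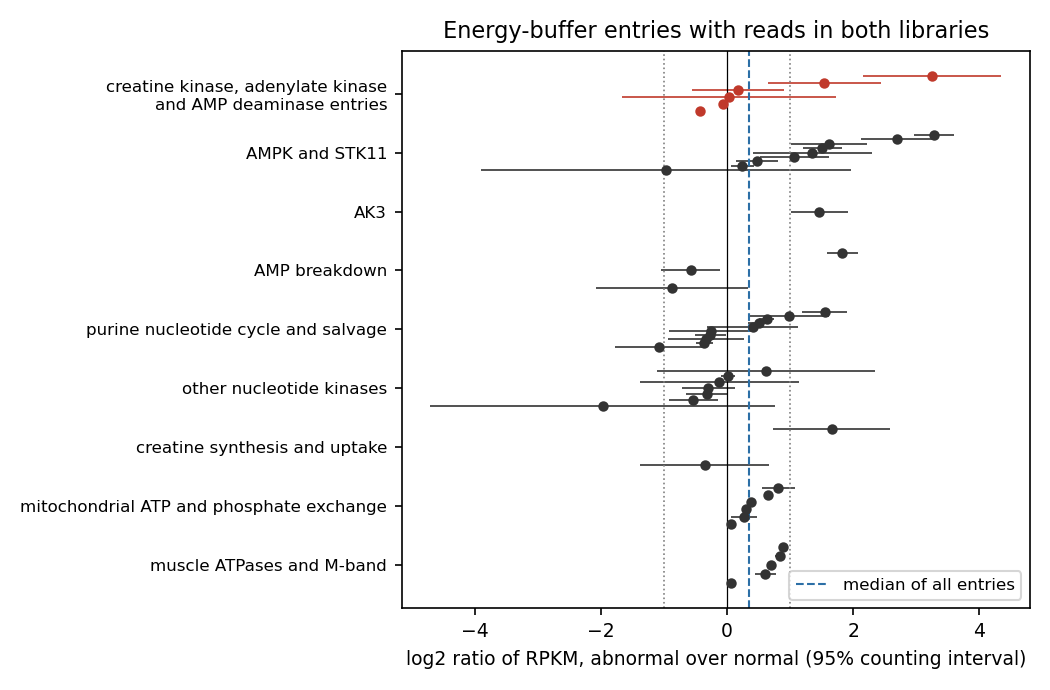
Log2 ratios of the RPKM (abnormal over normal) with their 95% counting intervals for 49 energy-buffer entries with reads in both libraries, grouped by role. Dotted lines mark the fold threshold of 1 in size and the dashed line the median of all entries at 0.35. AMPD1 is the rightmost creatine kinase, adenylate kinase or AMP deaminase entry at 3.25, and AMPK entries reach 3.28.

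Creatine itself enters a muscle fibre from the blood through SLC6A8. The larger SLC6A8 entry had 37 and 12 reads, levels of 4.65 RPKM (3.27 to 6.41) and 1.48 RPKM (0.763 to 2.58), and a log2 ratio of 1.66 (0.73 to 2.58). Its FDR of 0.00149 by the Audic-Claverie test missed the threshold. A smaller entry that overlaps it on chromosome X had 5 and 0 reads, so that reads of the transporter may be split. GATM, which makes the precursor of creatine, mainly in kidney, was listed with 13 and 17 reads (log2 ratio -0.36, -1.38 to 0.66). No difference in GATM was detectable at this depth.

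The AMPK entries were those in which most calls lay. AMPK is built from a catalytic alpha, a scaffolding beta and an AMP-binding gamma subunit, and STK11 (LKB1) is the kinase that activates it. Of the 9 entries 5 were up-regulated and 8 were higher in the abnormal library, with a median log2 ratio of 1.35, beside 12% up-regulated and a median of 0.35 over all entries. The exception was a second PRKAG1 entry with 1 and 2 reads. Under each of the 4 other scalings 4 of the 5 calls remained, and PRKAB1 was the call lost. In edgeR's exact test 2 of the 5 calls were left at an assumed variation of 0.2 (PRKAB2 and PRKAG2) and 0 at 0.4.

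PRKAG2, a gamma subunit, rose from 87 reads in the normal to 830 in the abnormal library, with levels, abnormal first, of 54.2 RPKM (50.6 to 58.1) and 5.57 RPKM (4.46 to 6.87). The log2 ratio of 3.28 (2.97 to 3.60) equals a 9.75-fold higher level in the abnormal library, with an FDR of 3.35e-154 by the Audic-Claverie test. The reads covered 78.1% and 62.2% of its transcript. Where along the transcript the additional reads of the abnormal library lay was not examined. PRKAG3, the gamma subunit that is typical of fast glycolytic muscle, had 87 and 29 reads and levels of 12.4 and 4.05 RPKM (log2 ratio 1.62, 1.01 to 2.22). PRKAG1, the widespread gamma subunit, had 167 and 123 reads and levels of 15.8 and 11.4 RPKM (0.47, 0.14 to 0.81), and was not called. Its reads covered 36.1% and 36.4% of the transcript, so its level, and the shares that rest on it, are less certain than those of PRKAG2.

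Of the summed RPKM of the gamma subunits PRKAG2 thus held 65.7% (abnormal) and 26.2% (normal). PRKAG1 held 19.1% and 53.4%, and PRKAG3 15.0% and 19.1%. The most abundant gamma transcript was PRKAG2 in the abnormal and PRKAG1 in the normal library. The log2 ratio of PRKAG1 to PRKAG2 differed by -2.81 (-3.28 to -2.35) between the libraries, which no scaling changes.

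Among the beta subunits, the muscle-rich PRKAB2 had 177 and 28 reads and levels of 22.5 and 3.48 RPKM (log2 ratio 2.69, 2.12 to 3.26). PRKAB1 had 80 and 39 reads and levels of 8.08 and 3.85 RPKM (1.07, 0.52 to 1.62). PRKAB1 was up-regulated by a small margin, and its log2 ratio was 0.71 under rescaling by the median ratio. Of the catalytic subunits PRKAA2, the main one of muscle, was up-regulated with 318 and 114 reads and levels of 24.7 and 8.68 RPKM (1.51, 1.203 to 1.82). PRKAA1 had 30 and 12 reads and levels of 4.30 and 1.68 RPKM (1.35, 0.40 to 2.30) and was not called. STK11 had 490 and 423 reads and levels of 47.9 and 40.4 RPKM (0.24, 0.06 to 0.43), and was lower instead under each of the 4 other scalings.

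**Figure D4:**
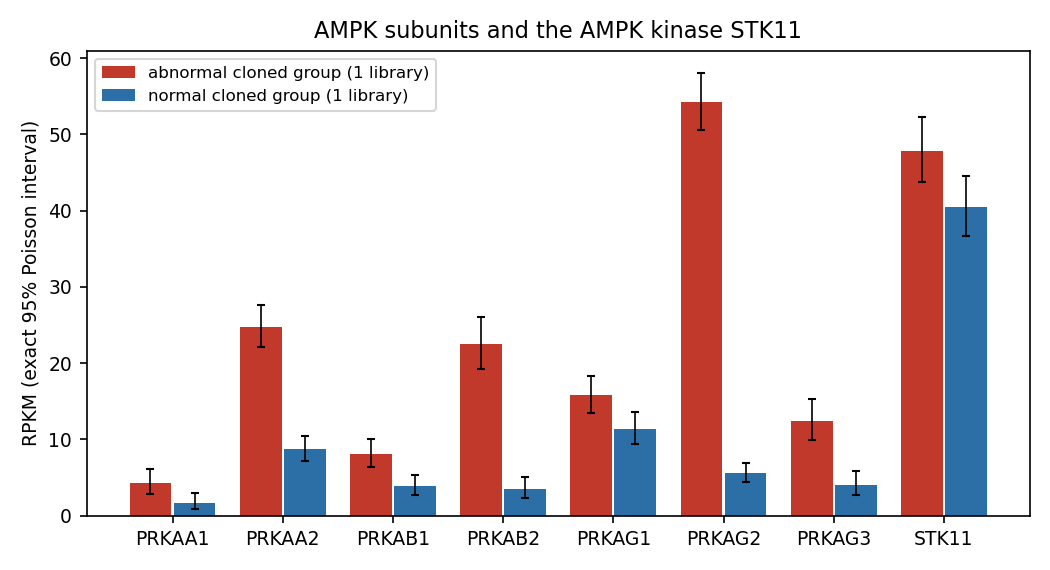
RPKM of the AMPK subunits and of STK11 in the abnormal (red) and normal (blue) cloned group, 1 library each, with exact 95% Poisson intervals. The second PRKAG1 entry with 1 and 2 reads is left out. PRKAG2 stands at 54.2 against 5.57 RPKM, while STK11 stands at 47.9 against 40.4 RPKM.

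The enzymes that AMP and IMP pass through held 1 call among 10 entries of the purine nucleotide cycle and purine salvage, with 5 entries higher and 5 lower. That share of calls is near the 12% of all entries that were up-regulated. HPRT1, which salvages hypoxanthine and guanine, was up-regulated with 237 and 83 reads and levels of 25.6 and 8.77 RPKM (log2 ratio 1.54, 1.18 to 1.90). ADSL, which splits adenylosuccinate into AMP within the cycle that AMPD1 opens, had 682 and 492 reads and levels of 65.2 and 46.1 RPKM (0.50, 0.33 to 0.67). IMPDH2, which leads IMP toward GMP, had levels of 131 and 84.7 RPKM (0.63, 0.51 to 0.75). GMPR, which runs from GMP back to IMP, had levels of 82.8 and 107 RPKM (-0.36, -0.50 to -0.23). The less abundant second forms had negative log2 ratios. IMPDH1 had levels of 3.47 and 4.37 RPKM (-0.34, -0.94 to 0.27) and GMPR2 levels of 21.9 and 26.3 RPKM (-0.27, -0.51 to -0.02). The interval of IMPDH1 spans both signs, so whether the forms of IMPDH differed in direction is not settled. None of these 4 entries was called.

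Of the 3 entries that break down AMP and IMP, NT5C2, a cytosolic nucleotidase that prefers IMP and GMP, was up-regulated. It had 576 and 166 reads and levels of 49.7 and 14.01 RPKM (log2 ratio 1.83, 1.58 to 2.07), with an FDR of 4.82e-54 by the Audic-Claverie test. NT5E, the nucleotidase of the cell surface, had 61 and 93 reads and levels of 4.52 and 6.75 RPKM (-0.58, -1.04 to -0.11). NT5C1A, the AMP-preferring nucleotidase of muscle, had 8 and 15 reads and levels of 1.13 and 2.08 RPKM (-0.88, -2.08 to 0.33). The nucleotidases thus did not share a direction.

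No entry was called among 7 other nucleotide kinases, 6 entries of mitochondrial exchange and 5 of muscle ATPases and M-band proteins. At an unadjusted p under 0.05 by the Audic-Claverie test these lists held 1, 6 and 5 entries. The share of all entries at that p was not computed, and with many reads small shifts reach it. SLC25A3 and MYOM2 reached it at log2 ratios of 0.06 and 0.05. NME2, a nucleoside diphosphate kinase and the most abundant of its list, had 1162 and 1176 reads and levels of 171 and 169 RPKM (log2 ratio 0.01, -0.10 to 0.13). It had no listed symbol and was named by its Ensembl identifier. Its protein description gives nucleoside diphosphate kinase A 1 of cattle, so which form it is remains uncertain. GUK1, the guanylate kinase, had levels of 21.8 and 27.1 RPKM (-0.31, -0.64 to 0.02), and NME3 had levels of 14.8 and 18.2 RPKM (-0.30, -0.72 to 0.12). Neither was separated between the libraries beyond counting error.

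All 6 mitochondrial exchange entries were higher in the abnormal library at total-read scaling, with a median log2 ratio of 0.34, near that of all entries. SLC25A4 had a log2 ratio of 0.38 (0.35 to 0.41), VDAC1 of 0.29 (0.24 to 0.34), VDAC2 of 0.65 (0.58 to 0.72) and SLC25A3 of 0.06 (0.01 to 0.11). The direction flipped under other scalings for SLC25A3 (4 of 4), VDAC1 (3 of 4) and SLC25A4 (1 of 4), so only the ratios within a library given above are free of the scaling. The 5 ATPase and M-band entries had a median log2 ratio of 0.69. ATP2A1 was at 0.89 (0.87 to 0.91). MYOM1 and MYOM2 are M-band proteins, which lie where muscle creatine kinase binds in the sarcomere. MYOM1 had levels of 233 and 144 RPKM (0.69, 0.64 to 0.75) and MYOM2 levels of 329 and 316 RPKM (0.05, 0.01 to 0.10), the latter lower under the 4 other scalings.

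The entries nearest to CKMT2 in log2 RPKM over both libraries were HBB, the beta chain of haemoglobin, at a Euclidean distance of 0.103, then RPS29 at 0.188 and the ribosomal HBP15/L22 at 0.240. HBB had levels of 472 and 686 RPKM. Those nearest to AK1 were RPS3A at 0.0856, SLC25A3 at 0.150 and RPS18 at 0.207. For AMPD1 they were UHRF1BP1 and BACH1, both at a rounded 0.115, and MAST4 at 0.167. Likeness here rests on 2 libraries only and describes the level and the ratio together.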

How the data were processed

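RNA-seq of biceps femoris was analysed in 2 libraries, 1 pool of abnormal and 1 pool of normal cloned piglets, and the condition of each was taken from its title. The authors enriched mRNA with oligo(dT) beads, sequenced it on an Illumina instrument and aligned it by SOAPaligner/soap2 against the transcripts of Sscrofa9, with up to 2 mismatches per read. For each transcript with a unique read the authors deposited the raw count of unique reads, the RPKM and the percent of the transcript that reads cover. The deposited RPKM could be recomputed from count, length and library total within a relative difference of 3.35e-08. An entry missing from 1 table was taken as 0 reads, and the count of reads carries no strand or isoform information. Reads of near-identical copies and overlapping models may be split or lost.

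Entries were named through RefSeq by Entrez number, then by Ensembl identifier, with 9616 of 12535 named in this way, and otherwise by the listed symbol. The log2 ratio of RPKM (0 set to 0.001), the Audic-Claverie probability (two-sided by doubling, conditioned on the normal library) and the Benjamini-Hochberg FDR were computed over all 12535 entries. The 95% intervals of log2 ratios follow Wilson's method on an entry's reads, with exact Poisson intervals for single levels and normal intervals on the log scale for ratios within a library. The script was tested on simulated data. Named are the other members of the rule, and of the pathway lists the called genes, the 3 most abundant per list and uncalled forms of an enzyme that is compared, plus the 3 entries nearest to CKMT2, AK1 and AMPD1. NT5E, NT5C1A and GATM completed their short lists, and PNP was named after its values were seen. The members and lists were chosen with earlier results of these data known, so no p was adjusted over a list and no list was tested. The planned ratio of CKMT2 to CKM could not be computed, since no CKM entry was found. Ratios of CKMT2 to other genes, chosen after seeing the data, took its place. Alternatives were 4 other scalings, Fisher's exact test, edgeR 4.0.16 (R 4.3.3) with an assumed biological variation of 0.2 or 0.4, a pseudocount of 1, a minimum of 10 reads in both libraries, the fold alone and the Audic-Claverie test conditioned on the abnormal library. Python 3.11.15, pandas 2.3.3, numpy 2.4.6 and scipy 1.17.1 were used. The values of 1 member are not reported here. DNA methylation data and sequences of the genes were not used here.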

Additional observations from a re-analysis of the deposited data

How the results depend on the processing

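No paired analysis was possible because each group had 1 library, and no library could be left out. Fisher's exact test and the Audic-Claverie test conditioned on the other library kept the calls of the 9 entries at 1 and of the AMPK entries at 5, and the latter moved SLC6A8 past the threshold. With edgeR's exact test the calls depended on the assumed biological variation. At 0.2 the counts were 1 of the 9 entries, 2 pathway entries and 2 AMPK entries (PRKAB2 and PRKAG2). At 0.4 all 3 counts were 0, where 2 entries were called up and 1 down among all 12535. A minimum of 10 reads in both libraries left 0 of the 9 entries called, since AMPD1 had 7 reads in the normal library. The fold alone called 4 of the 9 entries and 13 pathway entries, with 3749 up and 1475 down among all. The other scalings moved all log2 ratios down by 0.36 (median ratio), 0.39 (TMM), 0.25 (without the mitochondrial-genome transcripts) and 0.31 (without the 20 most abundant transcripts). Calls among all entries were then 812 up and 498 down, 751 and 548, 987 and 369, and 882 and 424.

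In the same order of scalings, log2 ratios that changed sign were -0.18, -0.22, -0.069 and -0.13 for AK4, -0.12, -0.15, -0.0042 and -0.065 for STK11, -0.30, -0.34, -0.19 and -0.25 for SLC25A3, -0.31, -0.34, -0.19 and -0.25 for MYOM2, and -0.35, -0.38, -0.23 and -0.29 for NME2. VDAC1 changed sign under the median ratio (-0.067), TMM (-0.10) and without the 20 most abundant transcripts (-0.015), and SLC25A4 under TMM (-0.014). PRKAB1 lost its call under the 4 scalings (0.71, 0.67, 0.82 and 0.76) and with a pseudocount of 1 (0.90). PNP, a purine nucleoside phosphorylase with 24 and 52 reads, became down-regulated under the 4 scalings (-1.44, -1.48, -1.33 and -1.39). CKMT2 (-0.83 to -0.43) and AK1 (-0.46 to -0.06) kept their sign and stayed without a call under every scaling and the pseudocount, and AMPD1 stayed called under them at 1.88 to 3.25. At this depth entries under about 10 reads, AK5 and AK7 among them, could not show a difference.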
